A study of Mus musculus with 6 samples.

Results

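The 9 genes described here encode proteins made by chondrocytes, most of them components of the cartilage matrix: Acan, Hapln1, Matn1, Matn3, Matn4, Comp, Cilp, Cnmd and Snorc. They are a named set, picked with earlier results of these data known, and every probe set that the array annotation assigns to a single one of them was taken, which gave 13 of 45037 probe sets and 9 of 18193 named genes. RNA came from the cochlear sensory epithelia (CSE) of Swiss mice (Swiss Webster in the methods) at postnatal day 3 (P3) and at 8 weeks (adult), with no allele or treatment named in the labels. Each stage had 3 arrays, and each array measured a pool from 20 mice of a separate dissection, so precision is limited by the number of arrays. The CSE is the strip of hair cells and supporting cells, with the greater epithelial ridge at P3 and the inner sulcus and interdental cells in the adult. The otic capsule, spiral ligament, stria vascularis and modiolus had been dissected away, so cartilage and bone of the capsule were not meant to be in the samples.

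Cartilage owes its stiffness to aggregates of aggrecan, a proteoglycan laden with chondroitin sulfate, which link proteins lock onto chains of hyaluronan. Matrilins, Comp and the fibril-associated collagens join these aggregates to collagen fibrils, and chondromodulin keeps blood vessels out of the tissue. In the mouse ear, the otic capsule forms as cartilage and turns into bone around and after birth, while several cartilage collagens are also made within the cochlea, in the spiral limbus, the basilar membrane and the tectorial membrane.

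Promoters are shown for 3 members: Matn1 and Matn4, whose P3 and adult signals did not overlap, and Acan, whose mean lay on the other side. They are the 250 bases before a start site, from RefSeq on GRCm38.p6, written 5′ to 3′ on the strand of the gene. Matn1 lies on the plus strand (chr4:130944135-130944384), Matn4 on the minus strand at the outer of its 2 listed starts (chr2:164405161-164405410) and Acan on the plus strand (chr7:79052976-79053225).
Matn1: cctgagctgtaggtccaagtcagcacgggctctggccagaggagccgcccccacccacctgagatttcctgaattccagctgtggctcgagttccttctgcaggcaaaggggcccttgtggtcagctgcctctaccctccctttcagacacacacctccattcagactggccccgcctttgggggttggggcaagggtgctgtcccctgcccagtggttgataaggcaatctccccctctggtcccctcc
Matn4: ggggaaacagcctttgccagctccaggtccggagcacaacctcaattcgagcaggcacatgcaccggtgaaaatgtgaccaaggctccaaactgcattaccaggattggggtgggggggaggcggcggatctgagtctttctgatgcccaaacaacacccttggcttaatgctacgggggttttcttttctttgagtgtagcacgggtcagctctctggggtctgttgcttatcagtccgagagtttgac
Acan: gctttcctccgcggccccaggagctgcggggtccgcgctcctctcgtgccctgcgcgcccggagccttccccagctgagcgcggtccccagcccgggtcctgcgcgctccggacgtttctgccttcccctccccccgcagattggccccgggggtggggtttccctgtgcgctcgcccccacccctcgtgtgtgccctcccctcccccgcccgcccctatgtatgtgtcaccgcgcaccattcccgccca
G and C made up 62% of the Matn1 stretch, 54.4% of that of Matn4 and 74.4% of that of Acan. RefSeq listed 8 promoters for 7 of the 9 members, with Comp and Snorc not among them. Windows of 300 bases, with 50 bases after the start, were searched on both strands for ACAAAG and ACAATG, cores recognised by SOX factors such as the chondrocyte regulator Sox9, and for TATAAA. The SOX cores share the letters ACAA, but no stretch can match more than 1 of the 3 motifs. No window of a member held any of these letters, so no base is in capitals. Over all 32851 mouse promoters of that length, 18.7% held ACAAAG, 12.6% held ACAATG and 13.6% held TATAAA.

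The signals are linear MAS5.0 intensities. Receptor genes of smell and bitter taste, taken as silent here, served to set each array's background level, which was 34.5 for P3 replicate 1 and 6.29 to 16.3 elsewhere. The 3′ to 5′ ratio of the Gapdh control was 82.0 on P3 replicate 1 and 0.707 to 2.07 elsewhere, so results that rest on this library are given with and without it. The 29036 probe sets that exceeded background on 3 or more of the 6 arrays were tested with limma on log2 signals. A call required a 2-fold difference and an adjusted p (Benjamini-Hochberg, over all tested probe sets) below 0.05, and each log2 fold change is given as adult minus P3. With 3 arrays a stage, exact permutation cannot reach a p below 0.1. Markers of the labelled tissue were present in part. Of 10 listed hair cell genes, 4 were above background on all 6 arrays, Myo7a, a hair cell myosin, among them. Pou4f3, a hair cell factor, was above background on 4 arrays, Cdh23, of the tip link, on 3, and Atoh1, which starts hair cell formation, on the 3 P3 arrays and no adult array, while Slc26a5 and Tmc1 did not pass the filter. These 5 are named for this check after their values were seen. Of 13 measured genes of supporting cells and the greater epithelial ridge, 10 were above background on all 6 arrays, Sox2, a factor of supporting cells, among them.

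Of the 13 probe sets 8 passed the filter on low signals, 1 for each member except Matn3. Only Matn1 was called, and it was higher at P3. At this threshold 3.87% of all tested probe sets were called for P3 and 3.39% for the adult, and counted over genes the shares were 5.54% and 4.58%, against 1 and 0 of the 8 measured members. At an unadjusted p below 0.05, limma gave 2 members for P3 and 1 for the adult, where 15.8% and 13.1% of all measured genes passed in these directions. The arrays of the stages did not overlap for 2 members, Matn1 and Matn4, against 31.1% of all tested probe sets. The median log2 fold change of the 8 members was -0.15, beside -0.04 over all 13743 measured genes. Without P3 replicate 1, 3 members were called, Matn1 and Matn4 higher at P3 and Acan higher in the adult. In RNA of a whole tissue, fewer cells of a type and less RNA per cell cannot be told apart.

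**Figure D1:**
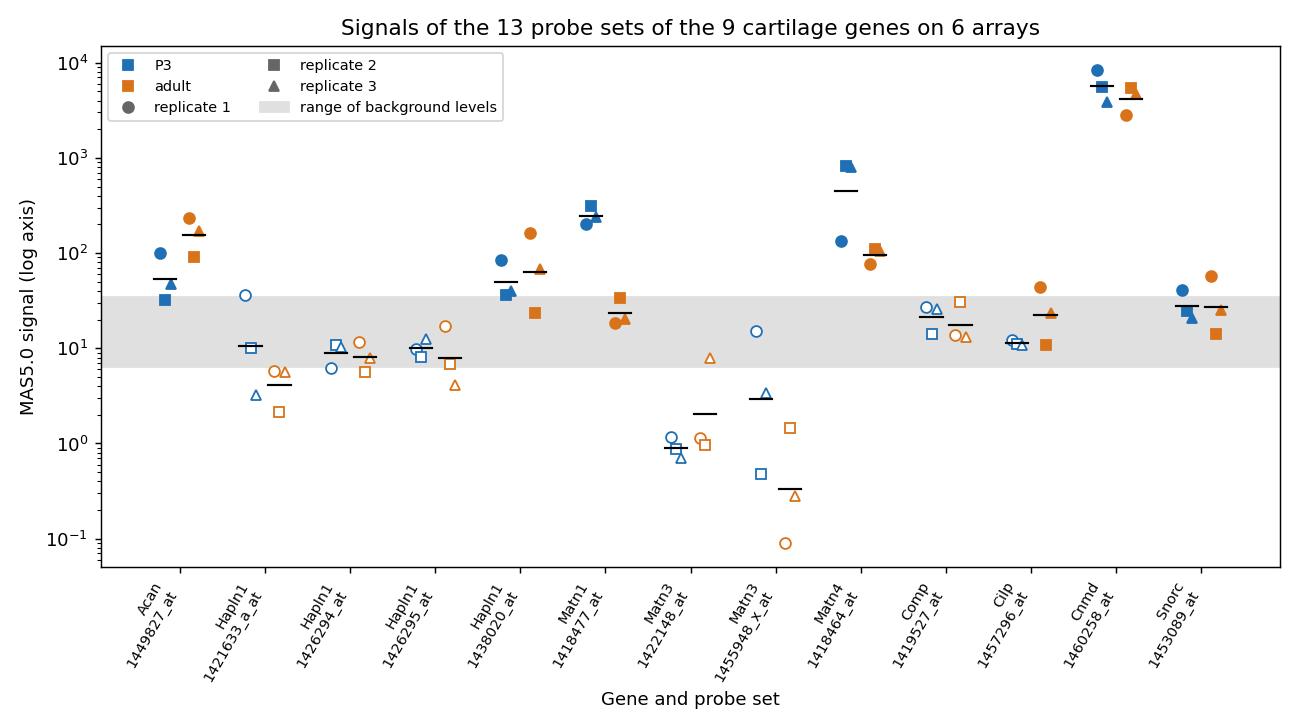
MAS5.0 signals (log axis) of the 13 probe sets on each of the 3 P3 and 3 adult arrays, with the geometric mean of each stage as a bar and the range of the arrays' background levels, 6.29 to 34.5, as a band. Symbols are filled where all 3 arrays of the stage were above their own background level. Matn1 and Matn4 are the filled pairs in which the P3 signals lie wholly above the adult signals, and both Matn3 probe sets are open at both stages.

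**Figure D2:**
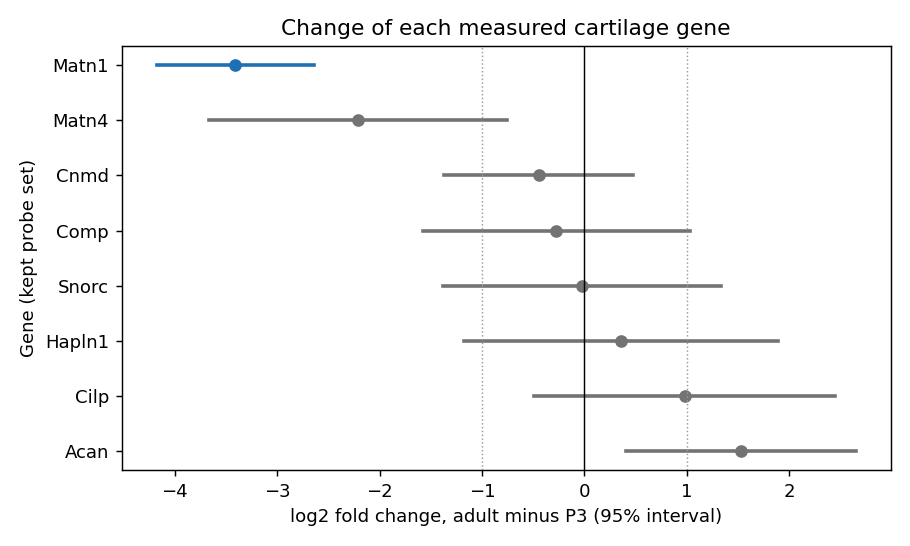
Log2 fold change, adult minus P3, of the 8 tested members with its 95% interval from limma, in blue where called and in grey where not. Dotted lines mark a fold of 2. The interval of Matn1, -4.18 to -2.64, lies wholly beyond that line, and those of 5 members include 0.

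Matn1, cartilage matrix protein or matrilin 1, is an adaptor that binds aggrecan and collagen II in hyaline cartilage. Its signal was 202, 313 and 240 on the P3 arrays and 18.6, 33.4 and 20.4 on the adult arrays, each in the order of replicates 1, 2 and 3, which is kept below. All P3 arrays thus lay far above all adult arrays, although the adult signals were still above background on 3 of 3 arrays. On adult replicate 1 the margin was small, 18.6 against a background level of 16.3. The means were 252 ± 56.6 at P3 and 24.1 ± 8.09 in the adult (SD, n = 3 arrays). Matn1 fell by 3.41 on the log2 scale (limma adjusted p = 0.0015, SE 0.34), which is a 10.6-fold higher geometric mean at P3 with a 95% interval of 6.23 to 18.1. It was -3.56 on that scale without P3 replicate 1, and between -3.67 and -3.24 over the arrays left out in turn. With the mean background added to every signal it was -2.80.

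Matn4, matrilin 4, is the family member found most widely outside cartilage, in loose connective tissue and nervous tissue as well. Its P3 signals were 133, 827 and 798, and its adult signals 76.1, 110 and 106. P3 replicate 1 stood well below the other P3 arrays and just above the adult ones, so the stages did not overlap but the P3 arrays were widely spread. The means were 586 ± 392 at P3 and 97.4 ± 18.5 in the adult (SD, n = 3 arrays). Its log2 fold change of -2.21 (SE 0.64) did not pass the test (limma adjusted p = 0.0748), and the 95% interval ran from -3.66 to -0.75. Without P3 replicate 1, Matn4 fell by 3.08 on the log2 scale and was called (limma adjusted p = 0.0016). With all arrays kept, it was called with signals floored at background (limma adjusted p = 0.0395), with array weights (1.12e-05) and with the replicate number as a block. The call thus depended on this library and on the processing. Leaving out P3 replicate 2 gave -1.76, and leaving out P3 replicate 3 gave -1.79, with no call in either case.

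Matn3, matrilin 3, forms mixed oligomers with matrilin 1 in growth plate cartilage. It has 2 probe sets, 1422148_at and 1455948_x_at, and neither was above background on any of the 6 arrays. Their signals were 0.706 to 1.16 at P3 and 0.961 to 7.85 in the adult for the first, and 0.48 to 15.3 at P3 and 0.0891 to 1.45 in the adult for the second. Matn3 was therefore not well above background at either stage, and no fold is given. Matn2, matrilin 2, the remaining relative and a protein of basement membranes and loose connective tissue, was measured and not called, with a log2 fold change of -0.52 (limma adjusted p = 0.518).

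Acan encodes aggrecan, the large proteoglycan of cartilage, which is also made in perineuronal nets. Signals of 101, 32.4 and 46.8 at P3 stood against 235, 91.7 and 170 in the adult. The stages overlapped at a single point, P3 replicate 1 lying above adult replicate 2. The means were 60.1 ± 36.2 at P3 and 166 ± 71.7 in the adult (SD, n = 3 arrays). On average Acan differed by 1.53 on the log2 scale (SE 0.49, 95% interval 0.41 to 2.65), a geometric mean 2.88-fold that of P3, and it did not pass the test (limma adjusted p = 0.101). Without P3 replicate 1 the log2 fold change was 1.99 and Acan was called higher in the adult (limma adjusted p = 0.0277). Leaving out each of the other arrays gave 1.17 to 1.90 and no call.

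Hapln1 encodes the link protein that fastens aggrecan to hyaluronan. Of its 4 probe sets, 1438020_at was tested, with signals of 84.7, 35.9 and 40.3 at P3 and of 161, 23.5 and 67.7 in the adult. The adult arrays enclosed the P3 arrays, with adult replicate 1 highest of all and adult replicate 2 lowest. Its log2 fold change was 0.36 (SE 0.67, 95% interval -1.18 to 1.89, limma adjusted p = 0.793), and it turned to -0.31 without adult replicate 1. The other probe sets of Hapln1, 1421633_a_at, 1426294_at and 1426295_at, were each above background on 2 of the 6 arrays and were not tested. Over the 6 arrays their signals ranged from 2.14 to 36.5, from 5.63 to 11.6 and from 4.16 to 17.2.

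Of the relatives of Acan and Hapln1, Vcan fell and Hapln4 rose between the stages. Among 8 measured genes of the lectican, link protein and hyaluronan family outside the members, 1 was called higher at P3 and 1 in the adult, with a median log2 fold change of -0.67. Vcan, versican, the lectican of embryonic and soft connective tissue, fell by 3.31 on the log2 scale (limma adjusted p = 0.0082, SE 0.52). Its mean was 123 ± 31.7 at P3 and 13.6 ± 6.87 in the adult (SD, n = 3 arrays), and it was called at -2.32 with background added and at -4.29 with array weights. Hapln4, a link protein of perineuronal nets in brain, rose by 4.83 (SE 0.69, limma adjusted p = 0.0059), from 5.97 ± 3.01 at P3, where 1 array was above background, to 184 ± 122 in the adult. The value was 3.45 with signals floored at background and 3.10 with background added, and 5.45 without adult replicate 2, and Hapln4 was called in each case. Bcan, brevican, a lectican of brain, was not called (log2 fold change -0.33, limma adjusted p = 0.649).

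Comp, cartilage oligomeric matrix protein or thrombospondin 5, bridges collagen fibrils in cartilage and tendon. Comp gave signals of 27.2, 14.1 and 25.7 at P3 and of 13.8, 30.8 and 13.1 in the adult. In each stage 2 arrays exceeded background, and the stages overlapped. The difference was -0.27 on the log2 scale (SE 0.57, 95% interval -1.58 to 1.03, limma adjusted p = 0.814), an interval that leaves room for a fold of 2 in either direction. Among its 4 thrombospondin relatives, 1 was called higher at P3 and 0 in the adult, with a median of -1.49. Of the 3 tested probe sets of Thbs2, 2 were called, with log2 fold changes from -2.33 to -1.72. At its brightest probe set Thbs2, an inhibitor of vessel growth made by fibroblasts, fell by 1.72 on the log2 scale (limma adjusted p = 0.0182, SE 0.33). Its call was lost without P3 replicate 2 (adjusted p = 0.0585), P3 replicate 3 (0.0607) or adult replicate 3 (0.0772). Thbs3 was above background on no adult array and at least 4.48-fold higher at P3. On the signals as deposited its log2 fold change of -3.92 did not pass the test (limma adjusted p = 0.0734). It was called under 4 of 15 alternatives. These were without adult replicate 1 (limma adjusted p = 0.0286), with signals floored at background (0.0186), with background added (0.0194) and with array weights (0.00016).

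Cilp, cartilage intermediate layer protein, is laid down in articular cartilage and in fibrous tissue. The P3 signals of 12.3, 11.1 and 10.7 compare with adult signals of 43.7, 10.8 and 23.7. The P3 arrays lay close together and adult replicate 2 fell among them, while the other adult arrays were higher. Cilp was above background on 2 P3 arrays and 3 adult arrays, its signal on P3 replicate 1 lying below that array's level of 34.5. Its log2 fold change was 0.98 (SE 0.64, 95% interval -0.49 to 2.45, limma adjusted p = 0.405), with 1.504 and 0.50 on leaving out adult replicates 2 and 1. With signals floored at background Cilp had a log2 fold change of 0.48 (limma adjusted p = 0.787). Its paralog Cilp2 was not called either, with a log2 fold change of -1.81 (limma adjusted p = 0.281), and it was above background on 2 P3 arrays and 1 adult array.

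Cnmd encodes chondromodulin, a membrane protein whose released part stops the growth of blood vessels into cartilage. Its probe set read 8445, 5495 and 3846 at P3 and 2787, 5382 and 4715 in the adult. Every array of both stages was far above background, and the stages overlapped. The means were 5929 ± 2330 at P3 and 4294 ± 1348 in the adult (SD, n = 3 arrays). The difference of -0.45 on the log2 scale did not pass the test (limma adjusted p = 0.554, SE 0.40), and its 95% interval of -1.37 to 0.48 takes in no rise of 2-fold but does take in a fall of that size. Without P3 replicate 1, the highest array, it was -0.15.

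Snorc encodes a small transmembrane proteoglycan of chondrocytes. At P3 it read 41.2, 24.9 and 20.9, and in the adult 57.6, 14.0 and 25.2. The adult arrays again enclosed the P3 arrays. Its log2 fold change was -0.03 (SE 0.60, 95% interval -1.39 to 1.34, limma adjusted p = 0.986), and its sign turned when P3 replicate 1 or adult replicates 2 or 3 were left out, with values between -0.56 and 0.46 over the 6 arrays left out in turn.

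**Figure D3:**
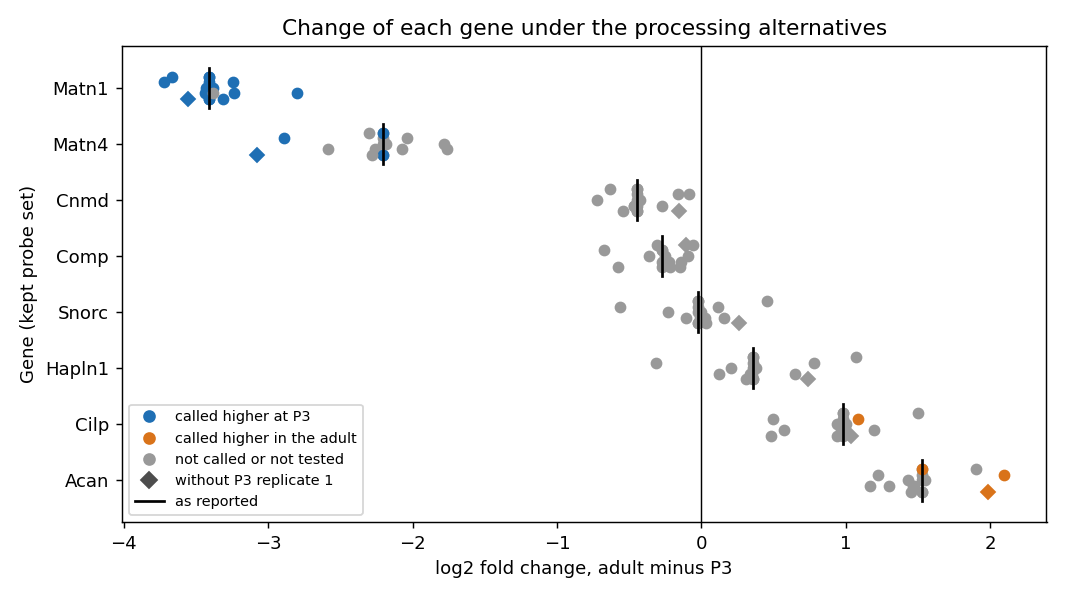
Values of log2 fold change (adult minus P3) for the 8 tested members in the reported fit (black bar) and under each alternative processing or left-out array (points), in blue or orange where the call was made and in grey where it was not or where the setting has no test. The diamonds are the values without P3 replicate 1. Every tested point of Matn1 is called, the diamonds of Matn4 and Acan are called, and the points of Snorc lie on both sides of 0.

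Within a stage, the members did not rise and fall together from array to array. In the adult, Acan, Hapln1, Cilp and Snorc were each highest on replicate 1 and lowest on replicate 2, an order that 27.4% of all tested probe sets had. Cnmd, Matn1 and Matn4 had the opposite order, highest on replicate 2 and lowest on replicate 1, which 21.2% of tested probe sets had. Both groupings of the 7 genes were the same after quantile normalization and after scaling to the same median, with the first order then in 20.9% and 13.8% of tested probe sets and the second in 26% and 38.7%. Comp was highest on adult replicate 2 under all 3 scalings, and after both rescalings it too had the second order. Adult replicate 1 had the highest adult background level, 16.3 against 9.05 and 8.71 on replicates 2 and 3. Its Gapdh 3′ to 5′ ratio was 2.07, against 0.921 and 1.22. Whether this bears on the orders was not tested. At P3 the order moved with the scaling. As deposited, 6 members, all but Matn1 and Matn4, were highest on replicate 1, as were 45.4% of all tested probe sets. After quantile normalization 3 were (Acan, Hapln1 and Snorc, against 40% of probe sets), and with the same median 2 were (Acan and Hapln1, against 17.5%). Since each array holds 1 pool, such orders describe these pools and carry no test.

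**Figure D4:**
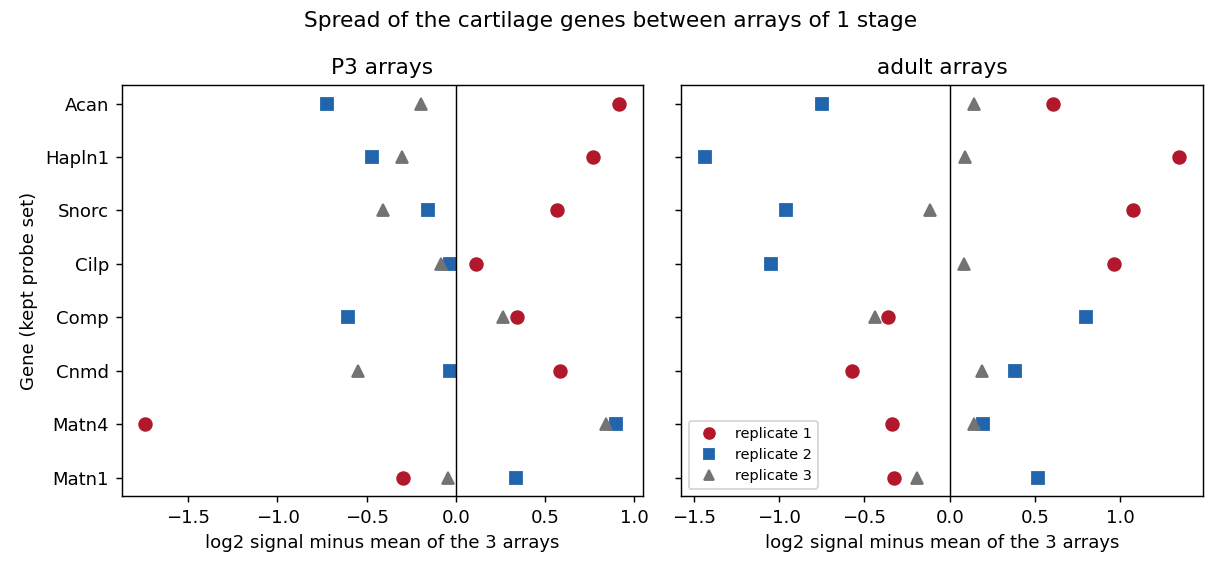
Deviation of each array from the mean of its stage (log2 signal minus the mean of the 3 arrays) for the 8 tested members, P3 arrays on the left and adult arrays on the right. In the adult panel, replicate 1 is the rightmost symbol for Acan, Hapln1, Snorc and Cilp and the leftmost for Cnmd, Matn4 and Matn1, and in the P3 panel replicate 1 of Matn4 stands far to the left.

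The collagens of cartilage, whose fibrils the matrilins and Comp join to the aggrecan aggregates, were mostly higher at P3. Of 7 measured genes, 5 were called higher at P3 and 0 in the adult, with a median of -2.81, and the count was 5 with each of the 6 arrays left out. Col2a1, the main collagen of cartilage and also a component of the tectorial membrane, had signals of 2229, 4529 and 3636 on the P3 arrays and of 266, 398 and 375 on the adult arrays, so that the stages lay far apart. It fell by 3.29 on the log2 scale (limma adjusted p = 0.00137, SE 0.31). Col9a1, Col9a3 and Col9a2, the chains of collagen IX on the fibril surface, had log2 fold changes of -3.89, -3.88 and -2.81 and were all called, with -3.18 for Col9a1 without P3 replicate 1. Col9a3 had 3 tested probe sets, of which 2 were called and 1 had a log2 fold change of 0.07.

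The other secreted proteins of cartilage were divided. Of 13 measured genes 2 were called higher at P3 and 5 in the adult, with a median of 0.62. Mia, a small protein secreted by chondrocytes that is also called cartilage-derived retinoic acid-sensitive protein, fell by 4.19 on the log2 scale (limma adjusted p = 0.00235, SE 0.47), and Chadl, a leucine-rich collagen-binding protein, fell by 3.92 (limma adjusted p = 0.000489, SE 0.22). Scrg1, a secreted protein first known from scrapie-infected brain, rose by 2.47 (limma adjusted p = 0.0075), a call lost without adult replicate 3 (adjusted p = 0.0549). For Prg4, lubricin, the adult signal was at least 5.51-fold higher. It was called on the signals as deposited (log2 fold change 3.88, limma adjusted p = 0.0385) but not with signals floored at background (limma adjusted p = 0.117). Its adult signals were 309, 36.03 and 29.9 on replicates 1, 2 and 3, and leaving out any of the 6 arrays ended the call, with adjusted p between 0.0570 and 0.0954. Without adult replicate 3, 1 gene of this list was called higher in the adult.

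Regulators of chondrocytes showed no called change. Of 9 measured genes, 0 were called in limma, in the fit with all arrays and with any array left out, and the median was -0.46. Over all measured genes 5.54% were called for P3 and 4.58% for the adult, and 0 of 9 lies near these shares. The number at an unadjusted p below 0.05 in limma was likewise 0, where 15.8% and 13.1% of all measured genes passed. No alternative setting gave a call. Sox9, which switches on Col2a1 and Acan in chondrocytes and is also expressed in supporting cells, had a log2 fold change of 0.14 (limma adjusted p = 0.811, SE 0.29). Another 6 listed genes, Ihh and Gdf5 among them, were measured on the array but not above background on enough arrays. Runx2 and Pthlh, also listed, had no probe set of their own.

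Enzymes that build and sulfate chondroitin, the sugar chain of aggrecan, included 23 measured genes, of which 4 were called higher at P3 and 1 in the adult, with a median of -0.15. Chsy1, a chondroitin synthase, fell by 2.25 on the log2 scale (limma adjusted p = 0.00212, SE 0.24), while Chst11, which adds sulfate at carbon 4 of the sugar, rose by 2.01 (SE 0.24, limma adjusted p = 0.00297). Chst11 had 2 tested probe sets, of which 1 was called, with log2 fold changes of 2.01 and 2.31. Chst15, another sulfotransferase, fell by 2.34 (limma adjusted p = 0.0284), but this call was lost on leaving out P3 replicates 2 or 3 or adult replicates 2 or 3, with adjusted p between 0.0762 and 0.123. Chst15 also had 2 tested probe sets, of which 1 was called. Leaving out P3 replicates 2 or 3 or adult replicate 3 brought the number called in the list to 2. Among 8 measured proteinases of aggrecan and matrilins with their inhibitor, 2 were called higher at P3 and 0 in the adult, with a median of -0.77. Adamts9, an aggrecan-cutting proteinase of growing tissue, fell by 3.26 (SE 0.28, limma adjusted p = 0.00097), from 302 ± 35.7 to 31.9 ± 7.43 (SD, n = 3 arrays). Adamts9 had 3 tested probe sets, of which 1 was called, with log2 fold changes from -3.26 to -1.38. Adamts15, a relative, fell by 2.13 (limma adjusted p = 0.0128), a call lost without P3 replicate 2 (adjusted p = 0.0835), P3 replicate 3 (0.0635) or adult replicate 3 (0.0539).

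**Figure D5:**
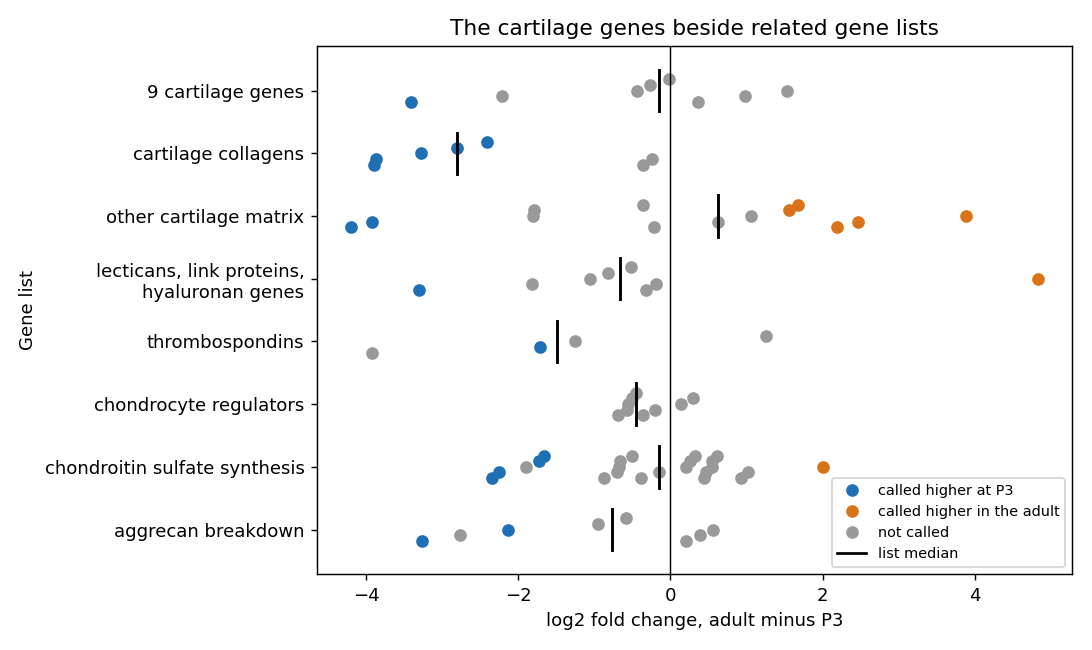
Plotted is the log2 fold change (adult minus P3) of each measured gene in the set of 9 cartilage genes and in 7 related lists, at its brightest tested probe set, with the list median as a black bar. The collagens lie to the left with 5 called genes and a median of -2.81, while the members spread on both sides of 0 with a median of -0.15.

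Markers of neighbouring tissue and of the epithelium were measured beside these results, and their part in the members' differences was not tested. Of 13 measured markers of spiral ligament fibrocytes, limbus and periotic mesenchyme, 0 were called higher at P3 and 4 in the adult, with 6 and 4 at an unadjusted p below 0.05, and their summed signal was 78132 on P3 replicate 1, 28682 and 23808 on the other P3 arrays and 40505 to 50334 in the adult. Without P3 replicate 1, the P3 sums thus lay below all adult sums. Such a sum is weighted to the brightest probe sets and does not describe every marker. On P3 replicate 1 Otor gave 38567 and Car3 21522, and in the adult Coch gave 8497 to 12330. Coch, cochlin of fibrocytes, rose by 4.08 on the log2 scale, Otos, otospiralin, rose by 2.39, and Gjb6, connexin 30 of fibrocytes and supporting cells, rose by 2.19. Other markers of this list went the other way without a call, among them Otor (-1.80), Lum (-1.26), Tbx18 (-1.18) and Pou3f4 (-1.01). The list median was -0.07. Of 11 measured bone cell genes, 1 was called higher at P3 and 3 in the adult, with summed signals of 18552 on P3 replicate 1, 6643 and 6058 on the other P3 arrays and 3697 to 6182 in the adult. Col1a2 alone gave 14541, 4887 and 4033 of the P3 sums and 1691 to 2700 of the adult ones. Those called higher in the adult were Sost, Mepe (limma adjusted p = 0.0081) and Dmp1 (limma adjusted p = 0.0307). Dmp1 had 3 tested probe sets, of which 2 were called. Sost, sclerostin of osteocytes, was above background on no P3 array and its adult signal was at least 7.98-fold higher. It was called on the signals as deposited (limma adjusted p = 0.0134) and floored at background (0.0135). The call was lost without adult replicate 2 (adjusted p = 0.0581) or adult replicate 3 (0.0735). Ctsk, the collagen-cutting enzyme of osteoclasts, fell by 2.81 on the log2 scale (limma adjusted p = 0.0093), a call lost without adult replicate 3 (adjusted p = 0.0562), when 1 bone cell gene in all was called. Bglap, osteocalcin, had no probe set of its own. Of 7 measured hair cell genes 0 were called by limma and 1 had an unadjusted p below 0.05, with summed signals of 458 to 639 at P3 and 363 to 602 in the adult, and Myo7a had a log2 fold change of -0.12 (limma adjusted p = 0.85). Of 13 measured genes of supporting cells and the greater epithelial ridge, 6 were called higher at P3 and 0 in the adult. Sox2 fell by 2.48 on the log2 scale (limma adjusted p = 0.00401), while Cdkn1b (0.61) and Prox1 (0.33) went the other way without a call. The summed signals of the 13 were 39778 on P3 replicate 1, 24414 and 16532 on the other P3 arrays and 8371 to 9809 in the adult. Epyc, not called and also listed among the secreted proteins of cartilage, gave 21617, 6616 and 4670 of the P3 sums. It gave 5937 to 7779 of the adult ones.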

How the data were processed

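Pooled CSE RNA was measured on 3 P3 and 3 adult Affymetrix Mouse Genome 430 2.0 arrays. The deposited values are the authors' MAS5.0 intensities, on a linear scale and scaled so that the mean without the extreme 2% at each end is 100. The submitters' processing notes name GCOS 1.2 and the methods another version. No further normalization was applied here, and 0 columns were left unmatched. Gene symbols come from an older platform annotation, in which 34945 probe sets name 1 gene, 932 several and 9160 none.

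On each array, 83 olfactory, vomeronasal and bitter taste receptor probe sets gave the background level as their 90th percentile. Stages were compared with limma 3.58.1 in R 4.3.3 (lmFit, eBayes with trend, stage as the only factor) on log2 signals over 29036 probe sets, with intervals at 95%, and the procedure was tested on simulated data. The study used SAM after a filter on detection calls. The values used here are signals without detection calls, so that filter could not be repeated, and limma was used in place of SAM. A gene was represented by its tested probe set of highest mean signal. A fold written as at least a value is a lower bound: no array of the dimmer stage exceeded background there, and its signals were raised to the background level before geometric means were divided. The call of such a gene is from the signals as deposited unless stated. A list was described by counts and its median, with no set test.

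The 9 members and the lists, settings and rule for named genes were chosen with earlier results of these data known. By that rule the text names all members, up to 4 called genes of each list with 1 called the other way, and up to 2 close relatives or cell type markers that were not called. Named beyond that rule, with their values known, were further uncalled markers of hair cells, supporting cells and the spiral ligament list. Alternatives tried were scaling to the same median, quantile normalization, no filter and a stricter one, a floor at background, addition of the mean background, eBayes without trend, array weights, a block for the replicate number, leaving out each array, the mean over probe sets and ratios of arithmetic means.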

Additional observations from a re-analysis of the deposited data

How the results depend on the processing

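The call of Matn1 held under all 15 alternatives that gave a test, with log2 fold changes between -3.72 and -2.80 and adjusted p of at most 0.0202. Matn4 was called under 4 of 15 and Acan under 3 of 15, without P3 replicate 1, with array weights and with the replicate block, and Matn4 also with signals floored at background. Cilp was called with array weights. The number of members called was 1, and it was 2 with floored signals, 4 with array weights and 1 to 3 with an array left out, with 3 without P3 replicate 1. The same counts held over genes and over probe sets. The members whose stages did not overlap numbered 2 to 5 with an array left out, with 5 without adult replicate 2, where 44.6% of all tested probe sets did not overlap. That share was 35.1% to 49.2% over the 6 arrays left out.

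Of all probe sets 2109 were called, 564 with each array scaled to the same median, 899 without the trend, 7593 with array weights and 576 to 2839 with an array left out. With array weights 3182 were called for P3 and 4411 for the adult, against 1125 and 984 as reported. The cause of these differences was not tested. Scaling to the same median also ended the calls of Prg4, Thbs2, Chst15, Chst11, Adamts15 and Gjb6, and leaving out the trend those of Prg4, Thbs2 and Chst15. Prg4 was called under 4 of 15 alternatives. With array weights the log2 fold change was -3.22 for Col9a1, 3.06 for Scrg1 and -3.18 for Chst15. Some uncalled genes changed sign. Snorc did so with background added (0.023) and array weights (0.11) and ranged from -0.56 to 0.46 with an array left out. Hapln1 ranged from -0.31 to 1.07, Bcan from -0.70 to 0.066 and Sox9 from -0.057 to 0.37 with an array left out. Myo7a was 0.098 with array weights and ranged from -0.25 to 0.046 with an array left out.

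The samples share replicate numbers, and their deviations from the stage means correlated at 0.182, 0.213 and 0.0762 for numbers 1, 2 and 3, so the numbers were not taken to pair the arrays, although each array correlated best with its own number. With the replicate number as a block, 3 members were called, Matn1 and Matn4 higher at P3 and Acan in the adult (limma adjusted p = 0.0018, 0.025 and 0.0167), as were 2649 probe sets in all.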
